A study of Arabidopsis thaliana with 32 samples.

Results

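Spaceflight was set against ground growth in 8-day-old roots of WS, the Wassilewskija wild type of Arabidopsis thaliana, over all loci of the authors' deposited table for that pair of groups. The table holds 888 loci, of 4882 listed in any of the 11 deposited tables of the series, and every one passed the q-value limit of 0.05 in the Cuffdiff test. WS spaceflight 8 d seedlings grew aboard the International Space Station in Veggie plant hardware, and WS ground 8 d seedlings grew in a copy of that hardware on Earth that followed the station's temperature, carbon dioxide and light with a delay. Each group had 4 samples, each a pool of 2 to 3 whole roots fixed in RNAlater, so fewer cells of a type and less RNA per cell cannot be told apart. The wider series has 32 samples in 8 groups, with sku5, a root-skewing mutant, beside WS and with 4 d beside 8 d.

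The deposited table gives 1 FPKM value (fragments scaled by transcript length and library size) for each group and locus. No value per sample is given, so no spread between the 4 samples can be computed, and depth is unknown. As an error, the deposited log2 fold change over its test statistic is printed, a rough scale named standard error here, with a median of 0.30 on the log2 scale over the 888 loci. A fold above ground is written as higher and a fold below it as lower.

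Roots sense gravity in the root cap and steer growth through auxin, which is carried from cell to cell by export and import proteins. Growth then depends on wall proteins such as expansins, xyloglucan-modifying enzymes, extensins and peroxidases, the last of which also produce and consume reactive oxygen. Plants respond to cold and drying with small hydrophilic proteins that are counted among the best known stress-induced transcripts.

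Of the 888 loci, 410 were higher and 478 lower in WS spaceflight 8 d. The deposited p and q values fix the number of loci that the authors tested, because q times rank over p was the same, 17365, at each of 51 p-value steps. The listed loci were thus 5.11% of those tested, with 2.36% higher and 2.75% lower. Shares of gene lists below are listed loci over annotated genes, tested or not, so they are not on the same base as this 5.11%. Most changes were small. The median fold was 1.63 for higher and 1.44 for lower loci in the authors' deposited table. Higher loci were weakly expressed, with a median of 20.7 FPKM in WS spaceflight and 11.8 FPKM in WS ground, whereas lower loci had medians of 60.3 FPKM in WS spaceflight and 90.0 FPKM in WS ground. A single gene name was given to 815 loci, 56 merged several genes and 17 had no name.

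The precursor of a microRNA had the largest fall among single-gene loci with at least 10 FPKM in the higher group. MIR158b (AT1G55591) stood at 5.95 FPKM in WS spaceflight and 52.9 FPKM in WS ground, 8.89-fold lower (standard error 0.85 on the log2 scale, q = 0.00259) in the authors' deposited table. The annotated precursor is 85 nt long and the deposited locus is longer, so the length behind this FPKM is unknown and its level uncertain. The mature product of MIR158b is shown because it carries the seed, bases 2 to 8, by which a microRNA pairs with its targets. The seed is in capitals, and the sequence was read from the TAIR10.1 reference of RefSeq, a Col-0 genome, at chr1:20772273-20772292 on the plus strand.
ath-miR158b: cCCCAAAUguagacaaagca
The locus went the other way at the younger age, with 36.2 FPKM in WS spaceflight 4 d and 2.87 FPKM in WS ground 4 d in the authors' deposited table. At 8 d on the ground it was at 3.53 FPKM in sku5 and 52.8 FPKM in WS in the authors' deposited table of genotypes. Among the 3 groups at 8 d with a value, WS ground was the highest.

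All listed loci of the cold and dehydration list were lower. Of 139 annotated genes of this list, 9 loci (6.47%) were listed, 0 higher and 9 lower. Their median log2 change was -0.70, beside -0.33 over all 888 loci. Among the 9, AT1G54540 and AT5G56050 were also counted with the extensins, and LTI30, merged with AT3G50860, with vesicle traffic. KIN1 (AT5G15960), a small cold-induced protein, had 37.6 FPKM in WS spaceflight and 121 FPKM in WS ground, 3.21-fold lower (standard error 0.76, q = 0.00259) in the authors' deposited table. Its neighbour KIN2 (AT5G15970) had 499 FPKM in WS spaceflight and 1052 FPKM in WS ground, 2.11-fold lower (q = 0.00259) in the authors' deposited table. The coding sequences of this pair are identical at 191 of 201 bases, so reads may have been split between them and neither value is certain alone. COR413-PM1, a cold-regulated membrane protein, stood at 562 FPKM in WS spaceflight and 784 FPKM in WS ground in the authors' deposited table. ERD14, an acidic dehydrin, stood at 373.5 FPKM in WS spaceflight and 474 FPKM in WS ground in the authors' deposited table. The small membrane proteins of the low temperature and salt responsive family, taken up after their values were seen, were lower at 4 of 8 annotated genes. RCI2A had 1957 FPKM in WS spaceflight and 2865 FPKM in WS ground, and RCI2B had 1423 FPKM in WS spaceflight and 2338 FPKM in WS ground in the authors' deposited table. In sku5 at 8 d, 8 of the 9 cold loci were listed and lower in spaceflight, beside 47.1% of all loci lower in WS. The sku5 table held 2 higher and 12 lower cold loci in all.

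Upstream sequence is shown for the KIN pair, to set the near-identical neighbours side by side, and for COR413-PM1, a cold gene with CCGAC. The 250 bases before the annotated start are from TAIR10.1 in RefSeq, and capitals mark CCGAC, the core of the cold-response element, and ACGTG, the core of the abscisic acid element, on either strand. KIN1 is read at chr5:5209467-5209716, KIN2 at chr5:5211469-5211718 and COR413-PM1 at chr2:6949601-6949850, all on the plus strand.
KIN1: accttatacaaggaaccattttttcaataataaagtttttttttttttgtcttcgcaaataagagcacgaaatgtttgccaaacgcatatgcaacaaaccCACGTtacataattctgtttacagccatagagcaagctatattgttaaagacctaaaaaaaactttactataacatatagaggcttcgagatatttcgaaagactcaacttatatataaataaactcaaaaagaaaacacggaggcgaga
KIN2: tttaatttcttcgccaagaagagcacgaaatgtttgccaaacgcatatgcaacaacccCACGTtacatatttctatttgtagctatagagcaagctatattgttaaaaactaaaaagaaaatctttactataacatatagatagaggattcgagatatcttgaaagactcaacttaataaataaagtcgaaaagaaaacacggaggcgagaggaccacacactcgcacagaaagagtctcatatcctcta
COR413-PM1: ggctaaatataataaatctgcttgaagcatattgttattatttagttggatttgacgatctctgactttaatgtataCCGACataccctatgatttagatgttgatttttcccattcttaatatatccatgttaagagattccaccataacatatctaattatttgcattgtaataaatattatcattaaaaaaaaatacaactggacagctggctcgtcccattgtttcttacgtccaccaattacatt
KIN1 and KIN2 each held 1 abscisic acid core and 0 cold-response cores, whereas COR413-PM1 held 1 cold-response core and 0 of the other. The CCGAC core was present in 2 of the 8 single-gene cold loci and in 11.97% of 27443 promoters of protein-coding genes. ACGTG was present in 4 of the 8 and in 22.9% of all promoters. A match describes these letters in this window and is not a site.

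Most of the listed redox enzyme and secreted peroxidase loci were lower, though most annotated genes of both lists were not listed. Of 225 annotated redox genes 18 loci (8%) were listed, 1 higher and 17 lower, with a median log2 change of -0.47. TRX5, a cytosolic thioredoxin, had 443 FPKM in WS spaceflight and 739 FPKM in WS ground, 1.67-fold lower (standard error 0.18, q = 0.00259) in the authors' deposited table. AT1G65970, a thioredoxin-dependent peroxidase, had 350 FPKM in WS spaceflight and 528 FPKM in WS ground in the authors' deposited table. Of 81 class III peroxidases 13 loci were listed, 2 higher and 11 lower, with a median log2 change of -0.45, which turned to 1.44 over the 3 loci that differed at least 2-fold. AT2G18150 had 19.1 FPKM in WS spaceflight and 54.3 FPKM in WS ground, 2.84-fold lower (q = 0.00259) in the authors' deposited table. AT1G49570 went the other way, with 6.13 FPKM in WS spaceflight and 1.12 FPKM in WS ground, 5.47-fold higher (q = 0.00259) in the authors' deposited table.

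Listed wall and lipid transfer loci were more often lower than higher in each list but cellulose synthesis. Of 53 cellulose synthesis genes 1 locus (1.89%), COBL2, was listed, and it was higher. Of 67 expansin and xyloglucan enzyme genes 6 loci (8.96%) were listed, 1 higher and 5 lower. XTH9, which remodels xyloglucan, had 122.5 FPKM in WS spaceflight and 260 FPKM in WS ground, 2.12-fold lower (standard error 0.21, q = 0.00259) in the authors' deposited table. EXLB1, an expansin-like gene, had 22.2 FPKM in WS spaceflight and 12.3 FPKM in WS ground in the authors' deposited table and was the higher member. Of 247 pectin enzyme genes 5 loci (2.02%) were listed, all lower, a small share of the annotated genes. Of 40 laccase and lignin enzyme genes 4 loci (10%) were listed, all lower. LAC3, a laccase, had 9.85 FPKM in WS spaceflight and 20.4 FPKM in WS ground in the authors' deposited table. Extensins, arabinogalactan and proline-rich proteins held 24 listed loci of 273 annotated genes (8.79%), 10 higher and 14 lower. Lipid transfer proteins held 11 of 142 (7.75%), with 3 higher and 8 lower.

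**Figure D1:**
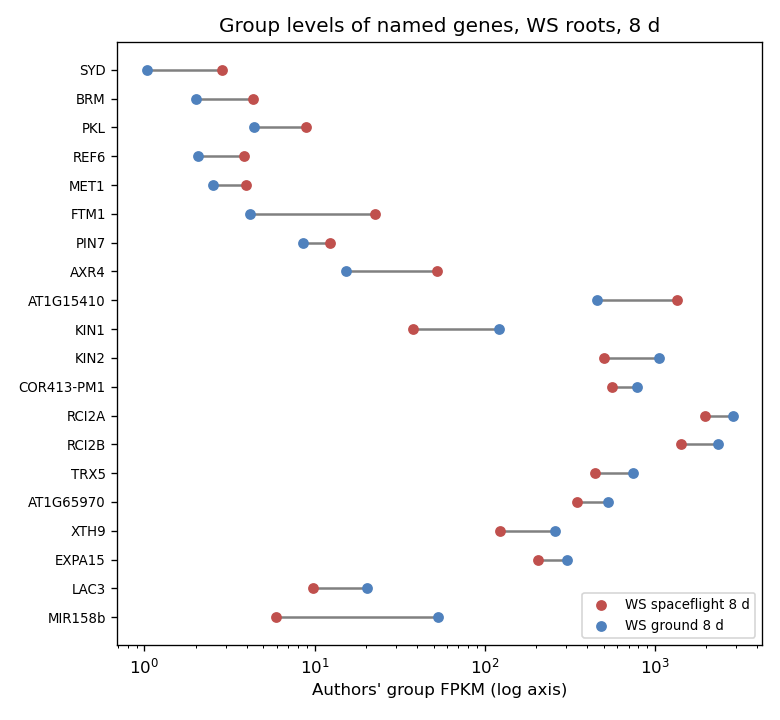
Authors' group FPKM (log axis) of named genes in WS spaceflight 8 d and WS ground 8 d, 1 value for each group and no error. Chromatin genes such as SYD lie at a few FPKM and are higher in spaceflight, whereas RCI2A, at 1957 FPKM in spaceflight and 2865 FPKM on the ground, is lower.

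All listed chromatin loci were higher. Of 128 annotated genes of this list 12 loci (9.4%) were listed, 12 higher and 0 lower, with a median log2 change of 0.79. SYD (AT2G28290), a SWI/SNF remodelling ATPase, had 2.85 FPKM in WS spaceflight and 1.03 FPKM in WS ground, 2.77-fold higher (standard error 0.70, q = 0.00960) in the authors' deposited table. Its relative BRM had 4.36 FPKM in WS spaceflight and 2.01 FPKM in WS ground in the authors' deposited table. PKL, a CHD3 remodeller, had 8.85 FPKM in WS spaceflight and 4.38 FPKM in WS ground in the authors' deposited table. The histone demethylase genes REF6 and ELF6, the remodellers CHR11 and CHR17 and the DNA methyltransferase gene MET1 were also listed as higher. In sku5 at 8 d 1 of these 12 loci, HDA3, was listed, and it was higher, beside 12.7% of all loci higher in WS. The sku5 table held 4 higher and 1 lower chromatin loci in all. Long transcripts make up most of the list: 9 of the 11 single-gene members had an annotated transcript of at least 3000 nt, and 1 lay between 1000 and 2000 nt.

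Listed loci for RNA processing, chaperones and the cytoskeleton were more often higher than lower. Their shares of annotated genes cannot be set against the 5.11% of loci tested, because the number of members tested is unknown. RNA processing and splicing held 7 higher and 3 lower loci of 189 annotated genes (5.29% listed). AT1G80070, a core splicing factor, was given a pair of loci on the same deposited interval, both higher. They count separately among the 7 though they carry the same gene name. The first had 24.4 FPKM in WS spaceflight and 12.03 FPKM in WS ground in the authors' deposited table. Chaperones and heat shock proteins held 12 higher and 2 lower of 286 (4.90%). SHD, the HSP90 of the endoplasmic reticulum, had 88.0 FPKM in WS spaceflight and 57.1 FPKM in WS ground, 1.54-fold higher (standard error 0.22, q = 0.00259) in the authors' deposited table. Cytoskeleton genes held 5 higher and 0 lower of 239 (2.09%), among them VLN3, an actin-bundling villin, at 22.7 FPKM in WS spaceflight and 13.0 FPKM in WS ground in the authors' deposited table. All 5 had annotated transcripts of at least 2972 nt, and 4 of them reached 3000 nt, a length at which nearly all listed loci were higher. The ribosomal protein list, meant as cytosolic, held 3 higher and 5 lower loci of 408 annotated genes (1.96% listed). Members were taken by name and their place in the cell was not checked. This includes AT5G09770, of the L17 family, and AT2G20060, of the L4/L1 family, both higher. The counts were 6 and 5 before 3 genes caught by name alone were dropped. Of the 8 loci 7 had transcripts under 1000 nt, 2 of the higher and all 5 lower ones. The ribosomal L41 gene AT3G11120 had 3359 FPKM in WS spaceflight and 4419 FPKM in WS ground, 1.32-fold lower (q = 0.00259) in the authors' deposited table.

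**Figure D2:**
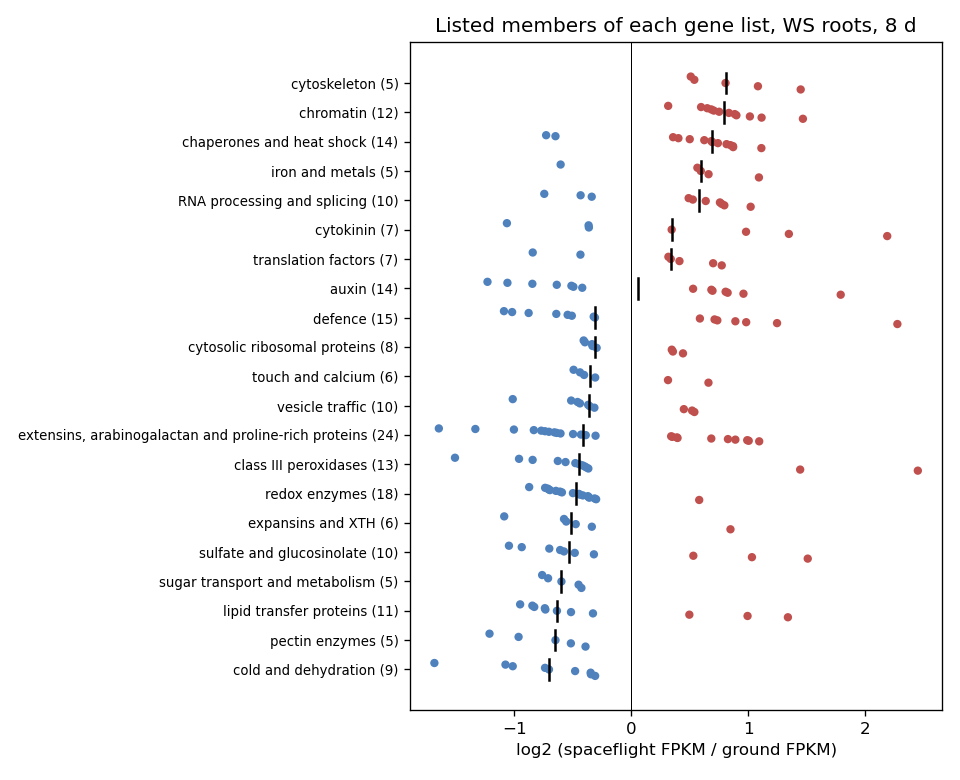
Log2 of spaceflight over ground FPKM of each listed member, for lists with at least 5 listed loci (number in brackets), with the median as a black bar. Cytoskeleton and chromatin loci all lie above 0 and cold and dehydration loci all lie below it.

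The direction of a locus moved with the length of its transcript and with its level. Among single-gene loci 18.8% of those under 1000 nt were higher in WS spaceflight, against 27.9% at 1000 to under 1500 nt, 38.7% at 1500 to under 2000 nt, 64.4% at 2000 to under 3000 nt and 99.2% at 3000 nt or more. In the longest class 131 of 132 loci were higher. The exception, AT2G48130, a lipid transfer protein, had 201 FPKM in WS spaceflight and 334 FPKM in WS ground in the authors' deposited table. The same lean was present in sku5 at 8 d, which shares no samples with WS, where 1.63% of loci under 1000 nt and 82.5% of those of at least 3000 nt were higher in spaceflight. At 4 d in WS the share was 52.6% of the 38 loci under 1000 nt, and only 2 loci reached 3000 nt. In sku5 at 4 d it was 50.0% of 154 loci under 1000 nt and 69.9% of 73 loci of at least 3000 nt. Median length was 2340 nt for higher and 1267 nt for lower loci in WS at 8 d. The part of length or level in the gene group results above was not tested. Counted over transcripts of 1000 to under 2000 nt alone, redox enzymes held 0 higher and 8 lower loci, class III peroxidases 2 and 9, cold genes 0 and 4, and chromatin 1 and 0. Extensins and related proteins turned to 5 higher and 3 lower and ribosomal proteins to 1 and 0. Cytoskeleton genes held 0 and 0 in this range.

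**Figure D3:**
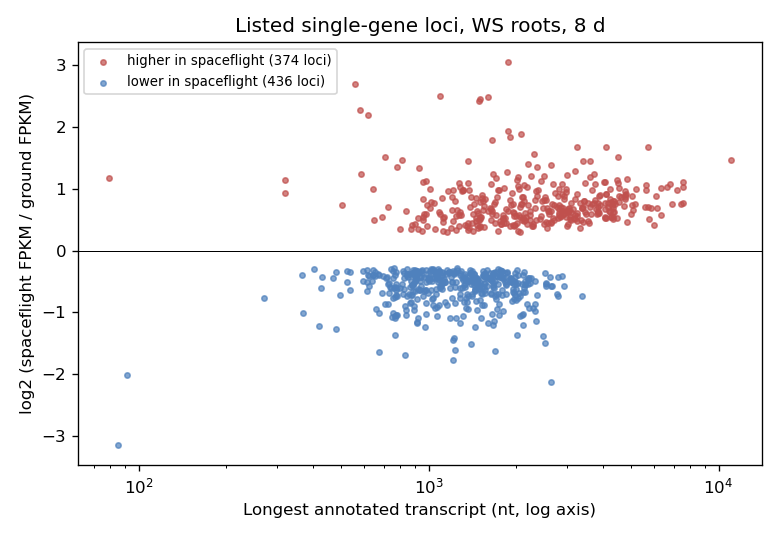
Log2 of spaceflight over ground FPKM of each listed single-gene locus in WS at 8 d against its longest annotated transcript (nt, log axis). Nearly all loci of at least 3000 nt lie above 0.

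**Figure D4:**
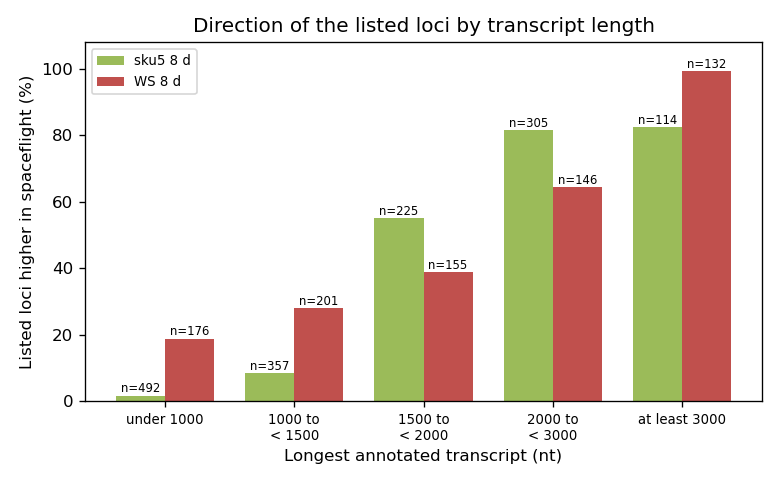
Share of listed single-gene loci that were higher in spaceflight (%), by length of the longest annotated transcript, in sku5 and in WS at 8 d, with the number of loci above each bar. The share is lowest under 1000 nt and highest at 3000 nt or more in both genotypes.

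The listed loci of the mitochondrial genome were higher. All 11 loci listed on it, none of which carries a gene name, were higher in WS spaceflight, with a median log2 change of 1.64. The most abundant had 510 FPKM in WS spaceflight and 159 FPKM in WS ground, 3.22-fold higher (standard error 0.39, q = 0.00259) in the authors' deposited table. The 11 loci fall on 8 deposited intervals, so they are not independent measurements. How many mitochondrial loci were tested is unknown, so no share can be given. Some were near the floor: the largest fold, 11.2, was at 2.52 FPKM in WS spaceflight and 0.224 FPKM in WS ground. The spaceflight tables of sku5 at 8 d, WS at 4 d and sku5 at 4 d listed 0 mitochondrial loci, but the difference between the tables was not tested. The largest gain in FPKM at a nuclear locus was that of AT1G15410, annotated as an aspartate-glutamate racemase, with 1346 FPKM in WS spaceflight and 455 FPKM in WS ground, 2.96-fold higher (standard error 0.55, q = 0.00259) in the authors' deposited table.

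Auxin genes were divided, 7 higher and 7 lower of 219 annotated (6.39% listed). The exporter gene PIN7 had 12.4 FPKM in WS spaceflight and 8.56 FPKM in WS ground in the authors' deposited table. AXR4, needed to place the importer AUX1 in the membrane, had 52.7 FPKM in WS spaceflight and 15.2 FPKM in WS ground, 3.46-fold higher (standard error 0.96, q = 0.0430) in the authors' deposited table. The importer gene LAX3 had 68.6 FPKM in WS spaceflight and 96.7 FPKM in WS ground, 1.41-fold lower (q = 0.00259) in the authors' deposited table. LBD29, an auxin-induced regulator of lateral root formation, had 3.25 FPKM in WS spaceflight and 7.62 FPKM in WS ground in the authors' deposited table.

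Cytokinin genes held 4 higher and 3 lower loci of 69 annotated genes. The sku5 table at 8 d held 0 higher and 4 lower cytokinin loci in all. The type-A response regulators, which are induced by cytokinin and dampen its signal, included RR17 with 7.58 FPKM in WS spaceflight and 1.66 FPKM in WS ground, 4.56-fold higher (standard error 1.01, q = 0.00797) in the authors' deposited table. ARR3 had 21.8 FPKM in WS spaceflight and 11.03 FPKM in WS ground in the authors' deposited table. ARR9, of the same type, was lower, with 43.4 FPKM in WS spaceflight and 55.8 FPKM in WS ground in the authors' deposited table. Of 25 annotated hypoxia genes 3 (12%) were listed, all higher. LBD41, a gene of the core low-oxygen response, had 17.6 FPKM in WS spaceflight and 12.05 FPKM in WS ground in the authors' deposited table.

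RR3 (AT2G41310), also of type A, had 28.04 FPKM in WS spaceflight and 11.02 FPKM in WS ground, 2.55-fold higher (standard error 0.50, q = 0.00259) in the authors' deposited table. In sku5 it went the other way, with 16.4 FPKM in sku5 spaceflight and 25.0 FPKM in sku5 ground in the authors' deposited table.

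Several of the largest changes fell outside these groups. HMGS, an enzyme at the start of the mevalonate pathway of isoprenoids, had 26.8 FPKM in WS spaceflight and 7.47 FPKM in WS ground, 3.59-fold higher (standard error 1.08, q = 0.0430) in the authors' deposited table. TOP1ALPHA, a DNA topoisomerase, had 34.6 FPKM in WS spaceflight and 10.8 FPKM in WS ground in the authors' deposited table. AT1G34047, a defensin-like gene, had 41.97 FPKM in WS spaceflight and 8.67 FPKM in WS ground, 4.84-fold higher (standard error 0.56, q = 0.00259) in the authors' deposited table. Among the falls, the receptor-kinase gene AT4G22730 had 2.31 FPKM in WS spaceflight and 10.08 FPKM in WS ground, 4.36-fold lower (standard error 0.75, q = 0.00259) in the authors' deposited table. AT2G33850, an E6-like protein, had 44.6 FPKM in WS spaceflight and 151.6 FPKM in WS ground in the authors' deposited table. A gene can have more than 1 locus, as 5 genes had, and these need not move together. PLDALPHA1, a phospholipase D, was higher at one locus, with 108.4 FPKM in WS spaceflight and 58.6 FPKM in WS ground, and lower at another, with 29.3 FPKM in WS spaceflight and 43.4 FPKM in WS ground in the authors' deposited table.

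Nutrient genes followed no single direction. Iron and metal genes held 4 higher and 1 lower of 81 annotated (6.17% listed). BTS, a regulator of the iron-deficiency response, had 4.37 FPKM in WS spaceflight and 2.05 FPKM in WS ground in the authors' deposited table. Phosphate genes held 3 higher and 1 lower of 80 annotated (5% listed). SPX1, a phosphate sensor, was at 49.4 FPKM in WS spaceflight and 27.1 FPKM in WS ground in the authors' deposited table. Sulfate and glucosinolate genes held 3 higher and 7 lower of 106 annotated (9.43% listed). SULTR1;2, a root sulfate importer, had 113 FPKM in WS spaceflight and 78.3 FPKM in WS ground in the authors' deposited table. CYP79B2, an enzyme of indole glucosinolate synthesis, had 43.4 FPKM in WS spaceflight and 66.2 FPKM in WS ground in the authors' deposited table. Sugar transport and metabolism held 0 higher and 5 lower of 254 annotated genes (1.97% listed). The counts were 2 and 8 before genes caught by name alone were dropped. Among the 5 was SWEET17, a vacuolar sugar transporter, at 73.9 FPKM in WS spaceflight and 125 FPKM in WS ground in the authors' deposited table.

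The response of WS was set beside that of sku5 at the same age, in which 1648 loci, 9.22% of those tested, were listed. The 312 loci listed in both were 18.9% of the sku5 list and 35.1% of the WS list. Opposite directions were found for 35 of them. FTM1 (AT1G43800), a stearoyl-ACP desaturase gene on the hypoxia list, was at 5.05 FPKM in sku5 spaceflight and 16.4 FPKM in sku5 ground, and at 22.5 FPKM in WS spaceflight and 4.19 FPKM in WS ground in the authors' deposited table. The difference of its log2 fold changes, sku5 minus WS, was -4.12 with a standard error of 0.68. AT1G12805 was at 1.80 FPKM in sku5 spaceflight and 22.9 FPKM in sku5 ground, and at 28.99 FPKM in WS spaceflight and 4.49 FPKM in WS ground in the authors' deposited table. At 4 d the WS table listed 128 loci, 0.715% of those tested. Of these 38 were listed at 8 d too, which is 29.7% of the 4 d list and 4.28% of the 8 d list. AT2G05510, a glycine-rich protein, was higher at both ages, with 108.5 FPKM in WS spaceflight 4 d, 24.4 FPKM in WS ground 4 d, 40.1 FPKM in WS spaceflight 8 d and 14.4 FPKM in WS ground 8 d in the authors' deposited table. CLE5, a signalling peptide gene, was lower at both ages, with 30.3 FPKM in WS spaceflight 4 d, 85.8 FPKM in WS ground 4 d, 37.5 FPKM in WS spaceflight 8 d and 97.1 FPKM in WS ground 8 d in the authors' deposited table. Another CLE5 locus was listed at 8 d but not at 4 d, with 56.7 FPKM in WS spaceflight 8 d and 117.6 FPKM in WS ground 8 d.

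**Figure D5:**
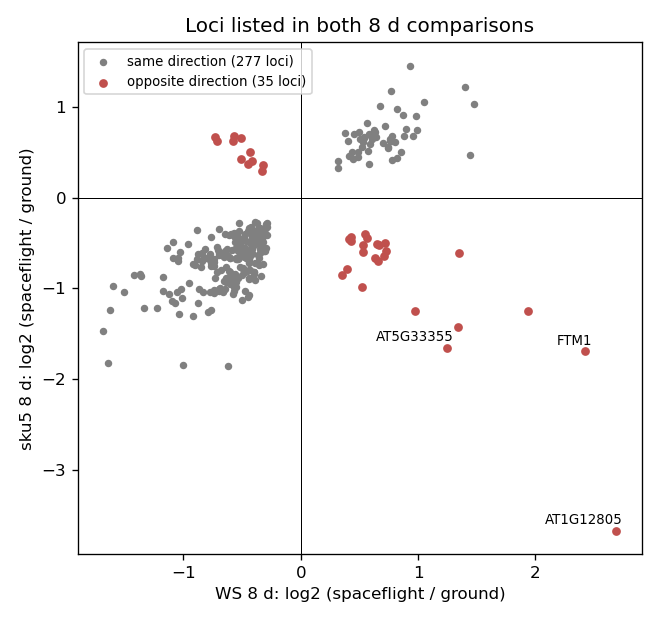
Log2 of spaceflight over ground FPKM in sku5 (vertical) against WS (horizontal) at 8 d for the 312 loci listed in both. Of these, 35 lie in the quadrants of opposite direction, with AT1G12805 the farthest from 0.

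Of the 42 gene lists, 28 had at least 3 listed loci. Defence genes held 7 higher and 8 lower of 554 annotated (2.71% listed), and translation factors 5 and 2 of 85 (8.24%). Vesicle traffic held 3 and 7 of 250 (4%), and touch and calcium 2 and 4 of 274 (2.19%). Suberin and Casparian strip genes had 0 listed loci.

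None of the 12 shoot and 11 seed marker genes was listed, and of 27 root cell type markers 1 was. That was PHO1, a stele gene that loads phosphate into the xylem, in a locus merged with AT3G23420, at 155.7 FPKM in WS spaceflight and 67.5 FPKM in WS ground, 2.31-fold higher (q = 0.00259) in the authors' deposited table. RBCS1A, a leaf photosynthesis gene, stood at 88.9 to 98.5 FPKM in WS spaceflight and 94.3 to 96.5 FPKM in WS ground across the authors' deposited tables that list it. Other shoot markers with a level were weak. In WS spaceflight and WS ground RBCS1B stood at 2.23 and 1.49 FPKM and RBCS2B at 1.94 and 0.806 FPKM. In the same order RBCS3B stood at 2.60 and 2.06 FPKM, whereas RCA was lower in spaceflight, at 6.62 and 7.67 FPKM. The seed storage genes SESA1, SESA2 and SESA3 were listed at 0 in both groups. CASP1, a marker of the endodermis, stood at 161 FPKM in WS ground, and no level of it in WS spaceflight was used here.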

How the data were processed

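Each table compares a pair of groups. Tools in the submitters' processing notes are STAR 2.5.1b, Cufflinks, Cuffdiff, Picard, FastQC 0.11.2 and Trimmomatic 0.36. A genome build was not given in the sources used here. The authors deposited, per the file headers, an FPKM for either group, a log2 fold change, a test score, and p-values and q-values. Depth per sample is unknown. Values were turned to spaceflight over ground with Python 3.11.15 and pandas 2.3.3. The number of loci tested was recovered from p, q and rank, a step tested on simulated data. Names, products and transcript lengths came from TAIR10.1, found by identifier for 810 of 815 single genes. Deposited coordinates lay within 1000 bases of that build for only 23 of them, so none were mixed. The members and the 42 gene lists were chosen with earlier results of these data known. A locus could count in more than 1 list, and a merged locus counted where any of its genes did, so list results are not separate. Such loci include the merged AT3G06770+AT3G06778, under pectin enzymes and chaperones, and AT1G54540 and AT5G56050, under cold and extensins. After values were seen, 20 entries caught by name alone were dropped from the lists. Named loci are, in each direction, the 10 largest folds among single-gene loci with at least 10 FPKM in the higher group and the 10 largest FPKM differences, up to 6 members of each list with at least 3, 5 opposite in sku5, 8 shared with 4 d, and the KIN pair. Other named genes were chosen after their values were seen. A withheld item is not reported here.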

Additional observations from a re-analysis of the deposited data

Results flagged for a closer look

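The following loci were picked out because 2 groups went in opposite directions under the same contrast. The differences come from group values and were not tested. Between genotypes at 8 d, the difference of log2 fold changes, sku5 minus WS, was -4.12 for FTM1, -6.37 for AT1G12805, -2.91 for AT5G33355, -1.21 for AGP3 and -1.18 for AT3G03270. Each was lower in sku5 spaceflight and higher in WS spaceflight than on the ground. Between ages in WS, the difference of log2 fold changes, 4 d minus 8 d, was 6.81 for MIR158b, 1.67 for AT1G65500, 2.13 for AT4G14060 and -2.86 for AT5G33355. AT5G33355, a defensin-like gene, thus appears in both sets. No check for an outlying sample could be made from group values.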

How the results depend on the processing

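No paired analysis was possible because the deposited tables hold group values only, and for the same reason no replicate could be left out. With q under 0.01 the count was 452 loci (200 higher, 252 lower), at 2-fold or more 143 (88 higher, 55 lower), and over transcripts of 1000 to under 2000 nt, a choice added after seeing the data, 356 (116 higher, 240 lower). With a mean of at least 10 FPKM 256 were higher. The other filters kept each count within 1.5 times. Opposite loci in sku5 and WS numbered 13 with q under 0.01 in both and 5 at 2-fold or more in both. Lists with at least 3 members numbered 8 at 2-fold and 12 over transcripts of 1000 to under 2000 nt. Values from the genotype tables left all 64 loci listed there in the same direction. They describe the same samples and shifted the log2 change by at most 0.017, so a reversal was not possible and this is no independent check. Of 180 named loci 126 had q under 0.01. With a pseudocount of 1 FPKM 0 turned round, but a pseudocount cannot reverse a direction, so this is no check. The median log2 change turned round in 9 lists. Over transcripts of 1000 to under 2000 nt it was 0.44 for ribosomal proteins, 0.37 for extensins and related proteins, 0.66 for touch and calcium and -0.69 for nitrate and ammonium. At 2-fold it was 1.44 for peroxidases, 1.34 for lipid transfer proteins, -1.06 for auxin, 1.03 for sulfate and glucosinolate and 0.11 for defence. With q under 0.01 it was -0.49 for auxin and -0.078 for nitrate and ammonium, which was -0.57 over single-gene loci. With no gene dropped it was 0.32 for ribosomal proteins and 0.14 for defence. These follow from counting fewer or other members.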
